A study of Mus musculus with 46 samples.

Results

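The 9 genes described here take part in muscle formation and were measured in mouse skeletal muscle. They are the satellite cell gene *Pax7* (ENSMUSG00000028736), the myogenic regulatory factors *Myf5*, *Myod1*, *Myog* and *Myf6*, the partner factor *Mef2c*, the surface adhesion genes *Cdh15* and *Ncam1*, and *Tceal7* (ENSMUSG00000079428). Members were found by matching the Ensembl identifier of each row to these symbols, and all 9 were present among 17514 genes in the gastrocnemius table and among 16987 genes in the spinalis table. All 9 passed the filter on low counts, which removed 0 genes from either table. In the androgen deprivation experiment, gastrocnemius muscle came from male C57BL6 mice (C57BL/6J in the study's methods) that were WT or *Actn3* KO. They were operated at 8 to 10 weeks of age and sampled 12 weeks later. Orchidectomy (ORX), removal of the testes, was compared with a sham operation in WT (6 sham and 6 ORX libraries) and in KO (6 sham and 5 ORX libraries). The labels list 6 KO-ORX samples, and the sixth was not analysed here. In the androgen treatment experiment, spinalis muscle came from female C57BL6 mice that received a silastic implant at 4 to 5 weeks of age and were sampled after 6 weeks. The implant was empty or held 10 mg of dihydrotestosterone (DHT), and each genotype gave 5 libraries with empty and 6 with DHT implants. The labels give KO as a genotype of the animal and name no tissue to which the loss of *Actn3*, the gene of α-actinin-3 in fast fibres, was limited. The experiments differed in muscle, sex and age, so values were not compared between them.

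Satellite cells are the resident stem cells of muscle fibres and are recognised by the transcription factor Pax7. Myf5 and MyoD commit them to the muscle lineage, myogenin (*Myog*) drives their differentiation, and MRF4 (*Myf6*) is the member of the same helix-loop-helix family that predominates in mature fibres. These factors bind E-boxes, the sequence CANNTG, and work together with MEF2 proteins on muscle promoters. M-cadherin (*Cdh15*) joins the satellite cell to its fibre, and NCAM (*Ncam1*) is found on satellite cells, Schwann cells and denervated fibres. *Tceal7* is an X-linked gene of the transcription elongation factor A-like family. Androgens act through the androgen receptor, which is present in fibres, in satellite cells and in other cells of muscle.

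Each library was made from total RNA of whole muscle, and each value is a count of reads on a gene. Library totals were 26.7 to 55.4 M counts (M for mega) in gastrocnemius and 34.8 to 53.9 M in spinalis. Every KO-sham library (29.5 to 37.5 M) was smaller than every WT-sham library (43.4 to 50.3 M). *Actn3* counts were 222975 to 522718 in WT libraries and 1051 to 3913 in KO libraries, so the genotype labels held in every library. All 10 fibre markers examined were present in both tables, with a summed level of at least 90470 CPM (a gene's counts per M counts of its library) in every library. Their sum was 90470 to 99027 CPM in KO-ORX against 97406 to 131689 in WT-ORX, and 5 of 10 were called lower in that comparison. In spinalis, 5 of 22 libraries (2 WT-DHT, 2 KO-DHT and 1 WT-empty) stood apart by *Lars2*, a gene in which reads resembling ribosomal RNA collect, at 7640 to 71870 CPM against 520.8 to 4660 in the other 17. Differences of the 9 members and of the list genes in spinalis were recomputed without these 5 libraries. Of the members' called differences 1 was lost, as given beside *Myf5*, and 14 of 51 called differences of the list genes with the smallest p were no longer called, with 0 turning sign. The profiles most like each member were not recomputed. No source states that the libraries of a group came from separate litters or days, so p-values measure the spread between these samples.

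Levels are given as CPM after scaling by the trimmed mean of M values (TMM). Divided by exon length to compare genes, the mean level in WT-sham gastrocnemius was 67.8 CPM per kb for *Myf6*, 53.9 for *Mef2c*, 17.3 for *Tceal7* and 4.10 for *Cdh15*. It was 3.42 for *Myod1*, 2.55 for *Myog*, 0.84 for *Myf5*, 0.618 for *Ncam1* and 0.205 for *Pax7*. On this scale the fibre-rich factor *Myf6* stood highest and the satellite cell factor *Pax7* lowest. The length used was all annotated exon bases of a gene, 15715 for *Mef2c* and 1263 for *Myf6*. In CPM *Mef2c* stood above *Myf6*, at a mean of 847 against 85.7 in WT-sham, so their order depends on this length. In KO-ORX muscle *Tceal7* stood above all the other 8 genes per kb, at 147.2 CPM per kb against 52.4 for *Myf6* and 47.7 for *Mef2c*. In CPM *Mef2c* stood higher there, at a mean of 749 against 179 for *Tceal7*. In WT-empty spinalis *Myog* stood above *Cdh15* and *Myod1*, at 9.22 CPM per kb against 5.89 and 4.40. *Pax7* rested on 34 to 156 counts per library and *Myf5* on 49 to 219, so both are measured less precisely than *Mef2c*, with 20533 counts or more.

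**Figure D1:**
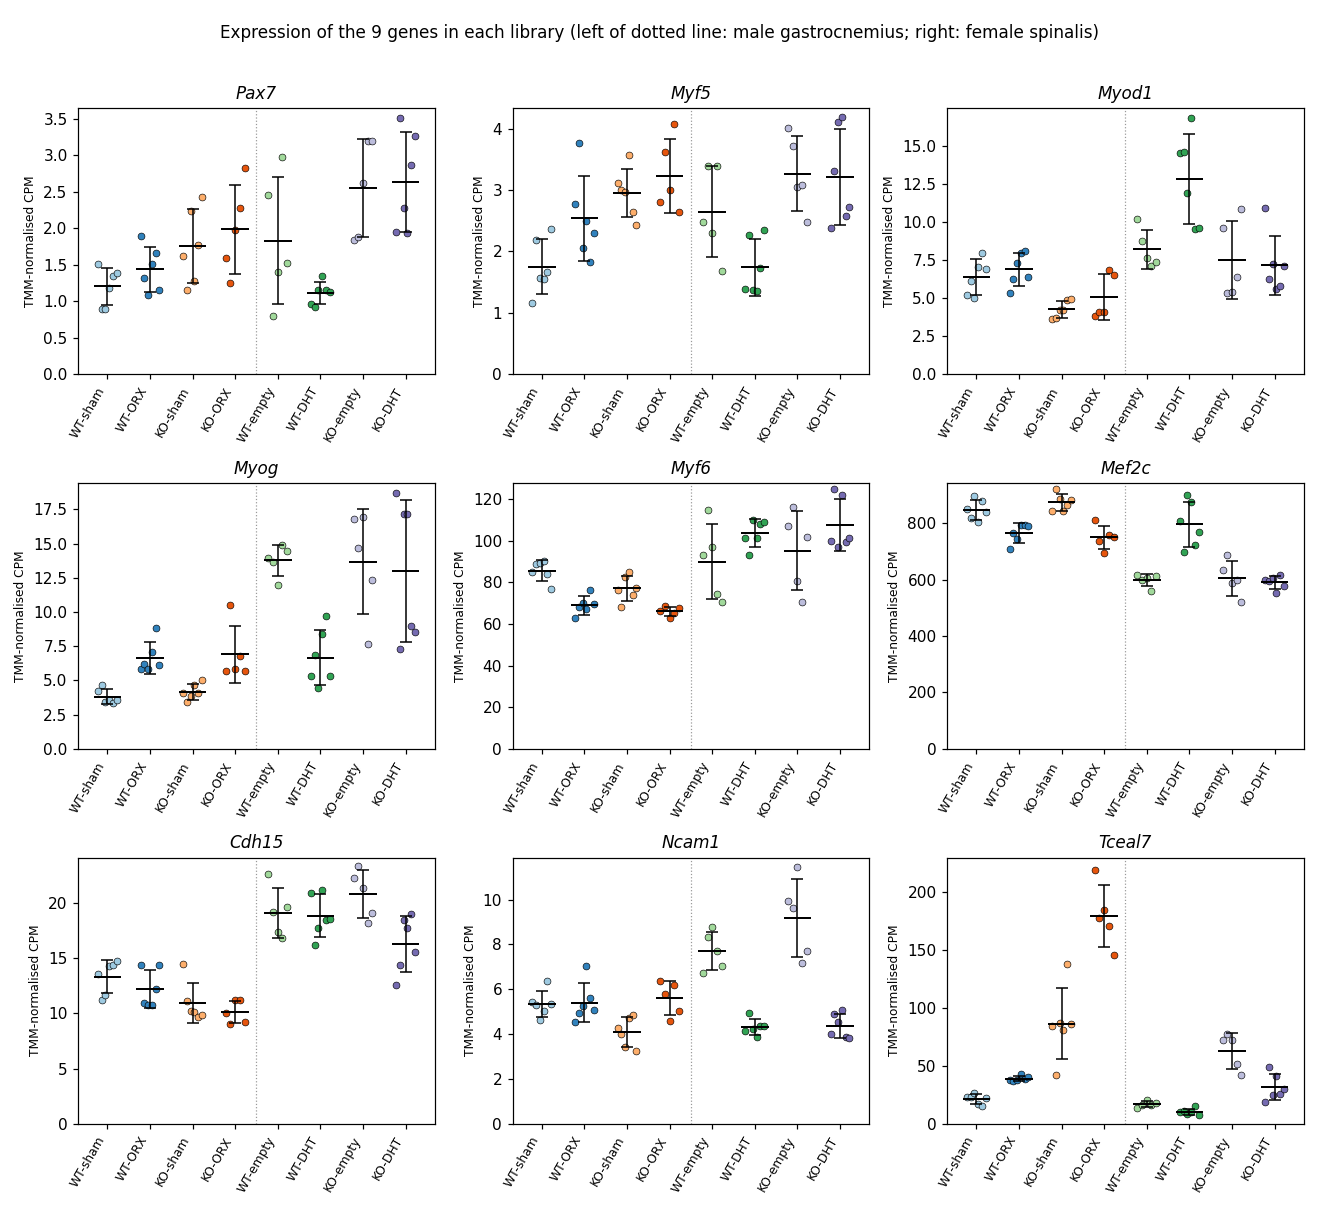
TMM-normalised CPM (vertical axis, linear, from 0) of each gene in the 8 groups; each point is a library, horizontal bars are means and whiskers 1 SD, with gastrocnemius left and spinalis right of the dotted line. *Tceal7* in KO-ORX lies at 145.6 to 218.8 CPM, above every library of the other gastrocnemius groups, and *Myog* in WT-DHT lies at 4.44 to 9.68 CPM, below every WT-empty library.

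Each comparison was tested with edgeR's quasi-likelihood test over all genes of its table, and a gene was called at a Benjamini-Hochberg adjusted p (q) of 0.01 or less, or of 0.05 or less for the interaction of genotype and treatment. The 9 members were chosen with earlier results of these data known, so their counts beside the share of all genes are no test of enrichment. After ORX, 3 of 9 genes were called in WT (*Myog* and *Tceal7* higher, *Myf6* lower), against 5.45% of all genes (2.04% higher, 3.41% lower), and the median log2 fold change was 0.11 against 0.01 over all genes. In KO, 4 of 9 were called after ORX (*Myog* and *Tceal7* higher, *Myf6* and *Mef2c* lower), against 5.57% of all genes (1.99% higher, 3.58% lower), with a median of 0.20 against 0.01. Without KO-ORX replicate 2 the count in KO was 2, as *Myog* and *Myf6* were lost, with 803 genes called over the whole table against 975 in the main fit. Between genotypes in sham muscle 2 were called (*Tceal7* and *Myf5* higher in KO), against 5.3% of all genes (2.48% higher, 2.82% lower), with a median of 0.04 against -0.01. In ORX muscle *Tceal7* was the 1 member called, against 3.8% of all genes (1.07% higher, 2.73% lower), with a median of 0.04 against 0.01. For the interaction with ORX, 0 members were called by edgeR, DESeq2 or limma-voom, against 0.0228% of all genes (0.0171% higher, 0.00571% lower), and 1 (*Ncam1*) had an unadjusted p under 0.05 by edgeR.

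After DHT, 3 of 9 genes were called in WT (*Mef2c* higher, *Myog* and *Ncam1* lower), against 11.3% of all genes (6.63% higher, 4.64% lower), with a median log2 fold change of -0.61 against -0.01 over all genes. In KO, 2 were called after DHT (*Ncam1* and *Tceal7*, both lower), against 4.62% of all genes (2.86% higher, 1.75% lower), with a median of -0.07 against -0.01. Between genotypes with empty implants, *Tceal7* was the 1 member called, against 4.25% of all genes (1.75% higher, 2.5% lower), with a median of 0.13 against 0.01. With DHT, 6 of 9 were called between genotypes (*Pax7*, *Myf5*, *Myog* and *Tceal7* higher in KO, *Myod1* and *Mef2c* lower), against 11.6% of all genes (5.13% higher, 6.51% lower), with a median of 0.05 against 0.01. For the interaction with DHT, *Mef2c* was the 1 member called, against 3.24% of all genes (1.34% higher, 1.9% lower), with a median of -0.23 against -0.01. The 4 comparisons within a muscle share groups: the WT-DHT libraries enter both DHT against empty in WT and KO against WT under DHT.

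**Figure D2:**
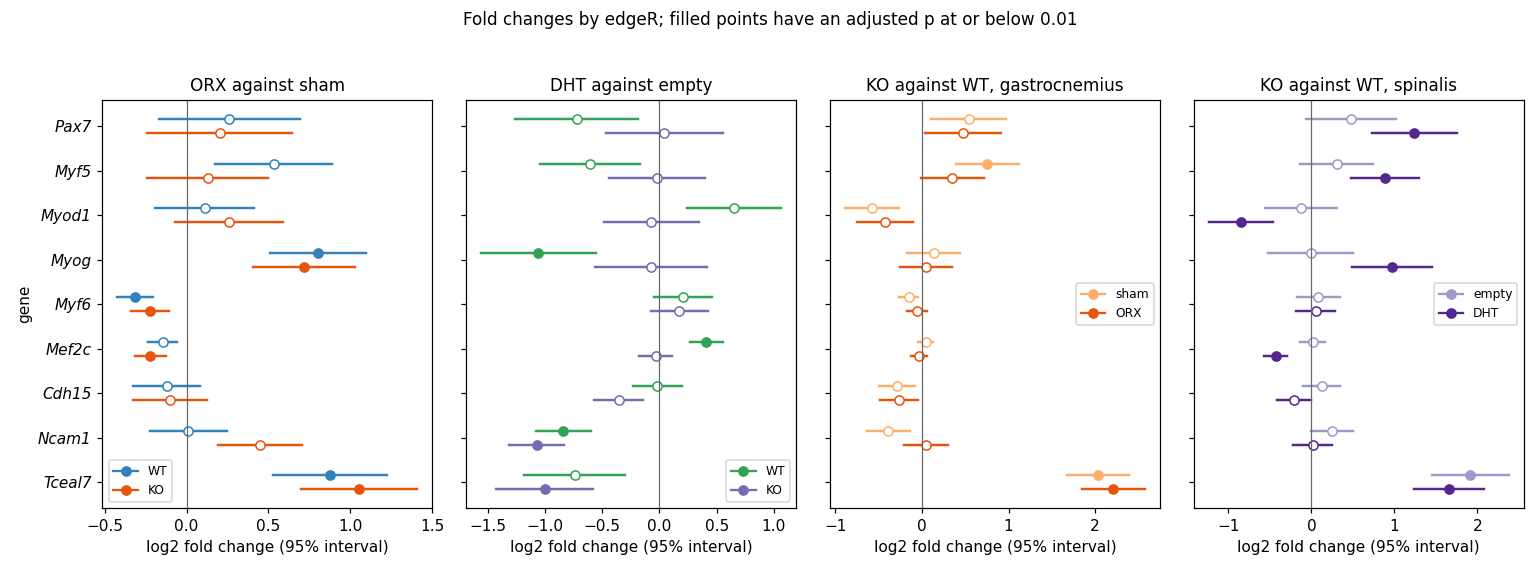
Log2 fold changes (horizontal axis) of the 9 genes by edgeR with 95% intervals, with ORX or DHT against its control in WT and KO (left panels) and KO against WT under each treatment (right panels); filled points have q of 0.01 or less. *Tceal7* lies right of 1.6 in all 4 comparisons of KO with WT, and *Myog* lies at 0.80 and 0.71 after ORX and at -1.06 after DHT in WT.

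*Tceal7* was higher in KO than in WT muscle under all 4 conditions. In gastrocnemius it ranged from 15.3 CPM, with a median of 22.2, to 26.8 in WT-sham and from 42.2, with a median of 85.3, to 138 in KO-sham. Its mean was 21.1 ± 4.32 (SD, n = 6) in WT-sham and 86.2 ± 30.4 (SD, n = 6) in KO-sham. These groups did not overlap, and the difference was 4.08-fold (log2 fold change 2.03 ± 0.17 SE, q = 8.3e-09). After ORX the level was 36.4 to 42.4 CPM (median 38.0) in WT, and the 5 KO-ORX libraries held 145.6, 170.1, 176.9, 184.4 and 218.8 CPM. KO-ORX exceeded WT-ORX 4.62-fold (2.21 ± 0.18 SE, q = 4.05e-09), again with no overlap. *Tceal7* ranked 17th and 8th by p among all genes in these comparisons of genotype.

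ORX itself raised *Tceal7* in both genotypes. The rise was 1.83-fold in WT (log2 0.88 ± 0.17 SE, q = 0.000874) and 2.08-fold in KO (1.06 ± 0.17 SE, q = 0.000184), and in each genotype every ORX library lay above every sham library. By median, levels climbed from WT-sham over WT-ORX and KO-sham to KO-ORX. Of these neighbours WT-ORX and KO-sham overlapped by a single library, since the highest WT-ORX value was 42.4 CPM and the lowest KO-sham value 42.2 CPM. The interaction was 0.18 (95% interval -0.32 to 0.68), with q = 0.853. KO-sham was the most variable of the 4 groups, with a 3.26-fold range against 1.17-fold in WT-ORX.

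In spinalis the same gene was lower in the androgen-treated muscle. The 5 WT-empty libraries held 13.5, 16.04, 16.2, 17.5 and 20.2 CPM of *Tceal7*, and WT-DHT ran from 7.15, with a median of 9.99, to 14.8. The difference in WT was -0.74 on the log2 scale (95% interval -1.18 to -0.30) and missed the threshold at q = 0.0149. It was called in 2 of 7 alternative fits, with only the WT groups (q = 0.00283) and with scaling by library size (q = 0.00806). Of 11 fits that left out a library 1 called it, without the WT-DHT library at 14.8 CPM (q = 0.0043). In the others q ran up to 0.0443. In KO-empty the values were 41.7, 51.6, 71.8, 72.3 and 77.4 CPM, against 18.8 to 49.0 (median 27.8) in KO-DHT. This fall was 2-fold (95% interval of the log2 fold change -1.42 to -0.58, q = 0.00246), although the highest KO-DHT library, at 49.0 CPM, lay inside the KO-empty range. With only the KO groups in the fit it was -1.01 with q = 0.0131. Without DHT, KO exceeded WT 3.77-fold (q = 4.3e-06), and with DHT 3.15-fold (q = 1.92e-06), with no overlap in either case. The interaction was -0.26 (95% interval -0.87 to 0.35), with q = 0.742.

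In the GENCODE M21 annotation, 223 of the 1217 exon bases of *Tceal7* (18.3%) are shared with the neighbouring gene *Bex1* on the opposite strand. Whether the counting used the strand is not given in the sources used here, so reads in these bases cannot be assigned with certainty. *Bex1* itself stood at 2.14 to 13.3 CPM over all libraries, and in KO-ORX at 8.66 to 13.3 CPM against 145.6 to 218.8 CPM for *Tceal7*. *Bex1* rose with ORX in WT (log2 fold change 0.51, q = 0.00813), a call kept in 2 of 12 fits that left out a library, and it fell with DHT in WT (-0.78, q = 0.00185), which became -0.60 with q = 0.0325 without the 5 libraries with high *Lars2*. Between genotypes *Bex1* differed by 0.41 in sham (q = 0.0367) and by 0.36 after ORX (q = 0.0978), and neither was called.

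The promoters of 6 of the 9 members were matched in RefSeq (build GRCm38.p6). Those of the 4 members called higher in KO-DHT than in WT-DHT are shown, chosen by this 1 comparison alone. Whether these 4 genes are regulated together was not tested. Each sequence is the 250 bases before the gene's start, written 5′ to 3′ on the gene's strand, and capitals mark E-boxes (CANNTG, a motif that reads as CANNTG on both strands).
Tceal7, chrX:136223791-136224040, plus strand: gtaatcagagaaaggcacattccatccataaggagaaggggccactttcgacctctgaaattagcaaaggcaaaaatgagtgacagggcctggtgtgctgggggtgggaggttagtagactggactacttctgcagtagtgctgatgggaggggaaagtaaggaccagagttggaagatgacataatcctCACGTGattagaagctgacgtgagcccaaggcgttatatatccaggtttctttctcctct
Myog, chr1:134289754-134290003, plus strand: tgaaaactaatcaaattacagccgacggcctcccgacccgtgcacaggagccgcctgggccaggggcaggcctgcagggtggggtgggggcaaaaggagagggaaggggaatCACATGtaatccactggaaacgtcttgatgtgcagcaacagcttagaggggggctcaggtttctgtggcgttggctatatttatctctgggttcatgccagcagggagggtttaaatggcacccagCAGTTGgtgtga
Pax7, chr4:139832969-139833218, minus strand: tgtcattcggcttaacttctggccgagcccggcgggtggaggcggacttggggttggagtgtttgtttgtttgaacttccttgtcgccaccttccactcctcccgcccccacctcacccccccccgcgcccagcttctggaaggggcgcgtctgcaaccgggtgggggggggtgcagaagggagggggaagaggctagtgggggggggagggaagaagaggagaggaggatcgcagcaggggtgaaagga
Myf5, chr10:107486135-107486384, minus strand: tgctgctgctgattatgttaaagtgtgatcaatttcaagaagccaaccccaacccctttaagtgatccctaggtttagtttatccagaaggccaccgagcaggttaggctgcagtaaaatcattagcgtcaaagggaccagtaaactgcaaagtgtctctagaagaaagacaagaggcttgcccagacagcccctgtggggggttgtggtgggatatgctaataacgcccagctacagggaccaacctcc
The *Tceal7* window held 1 E-box, CACGTG, 60 to 55 bases before the start. The *Myog* window held 2, CACATG at 138 to 133 and CAGTTG at 12 to 7 bases before the start. The windows of *Pax7* and *Myf5* held 0. Among 32817 RefSeq promoters of this length, 66.2% held a CANNTG and 6.02% a CACGTG, which is 1 of the forms of CANNTG. The AGAACA hexamer of androgen response elements, searched on both strands, was in 0 of these 4 windows, in 1 of 3 *Mef2c* windows (197 to 192 bases before the start), in 0 of 1 *Cdh15* window and in 16.1% of all promoters. For *Cdh15* the bases after the RefSeq start were found near the 5′ end of 0 GENCODE transcripts of the gene, against 1 or 2 for each of the other 5 matched members. *Myod1*, *Myf6* and *Ncam1* had no entry.

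*Pax7*, which marks satellite cells, was higher in KO than in WT spinalis after DHT. In WT-DHT it ranged from 0.924, with a median of 1.14, to 1.35 CPM, and in KO-DHT from 1.93, with a median of 2.57, to 3.51 CPM. The groups did not overlap, and KO was 2.36-fold higher (log2 fold change 1.24 ± 0.25 SE, q = 0.000696). In whole muscle, more satellite cells and more *Pax7* RNA per cell cannot be told apart. The WT-empty libraries held 0.801, 1.41, 1.52, 2.45 and 2.98 CPM, a 3.72-fold range that took in all WT-DHT libraries. The difference of WT-DHT from WT-empty was -0.72 on the log2 scale (95% interval -1.26 to -0.19, q = 0.0553), and it was called in 1 of 11 fits that left out a library. It was -0.91 with q = 0.00757 without the WT-empty library at 0.801 CPM and -0.47 with q = 0.245 without the one at 2.98 CPM. In KO, DHT and empty libraries differed by 0.04 (95% interval -0.47 to 0.56), and the interaction of 0.77 had q = 0.308. In gastrocnemius, KO exceeded WT by 0.54 in sham (q = 0.11) and by 0.48 after ORX (q = 0.21), and the groups overlapped. After thinning to the smallest library the latter was 0.23 with q = 0.652. ORX against sham gave 0.26 in WT (95% interval -0.17 to 0.69) and 0.20 in KO (95% interval -0.24 to 0.65), with an interaction of -0.06, and KO against WT with empty implants gave 0.47 (q = 0.288). Over the alternative fits and those that left out a library, none of which called these *Pax7* differences, they ran from 0.16 to 0.48, from 0.04 to 0.32, from -0.39 to 0.06 and from 0.27 to 0.73.

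*Myf5*, expressed in committed satellite cells, was higher in KO in the same spinalis comparison. It ranged from 1.35 to 2.35 CPM (median 1.56) in WT-DHT and from 2.38 to 4.18 CPM (median 3.02) in KO-DHT, again with no overlap, and the difference was 1.85-fold (log2 fold change 0.89 ± 0.20 SE, q = 0.00238). The value was 0.90 with q = 0.0168 when the 5 libraries with high *Lars2* were left out. In sham gastrocnemius *Myf5* was also higher in KO, at 2.43 to 3.57 CPM (median 2.99) against 1.15 to 2.37 CPM (median 1.62) in WT. That difference was 1.69-fold (0.75 ± 0.18 SE, q = 0.00532) with no overlap, but it was called in 4 of 12 fits that each left out a library, where q ran from 0.00246 to 0.0157, and with scaling by library size it was 0.72 with q = 0.0127. After ORX the WT level was 1.83 to 3.77 CPM, a difference from WT-sham of 0.53 (q = 0.0521). KO-ORX held 2.64, 2.81, 2.999, 3.62 and 4.08 CPM, and its difference from KO-sham was 0.13 (95% interval -0.24 to 0.50). Between genotypes the difference was 0.35 after ORX (q = 0.29) and 0.30 with empty implants (q = 0.431), the latter at 0.18 (q = 0.677) without the WT-empty library at 1.68 CPM. DHT against empty gave -0.61 in WT (95% interval -1.04 to -0.17, q = 0.0461) and -0.02 in KO (95% interval -0.44 to 0.40). The interactions were -0.40 with ORX and 0.59 with DHT, and neither was called.

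*Myod1*, which determines the muscle lineage together with *Myf5*, differed in the opposite direction to *Pax7* and *Myf5*. In WT-DHT spinalis it ran from 9.55, with a median of 13.2, to 16.8 CPM, and in KO-DHT from 5.60, with a median of 6.66, to 10.9 CPM. KO was 1.80-fold lower (log2 fold change -0.85 ± 0.19 SE, q = 0.00211), with the highest KO-DHT library, at 10.9 CPM, inside the WT-DHT range. DHT against empty in WT gave 0.65 (95% interval 0.24 to 1.06, q = 0.0222 by edgeR and 0.00683 by DESeq2), and in KO -0.07 (95% interval -0.48 to 0.34). The difference in WT was called in 2 of 7 alternative fits and in 0 of 11 fits that left out a library (q up to 0.0661). In sham gastrocnemius *Myod1* was at 4.97 to 7.99 CPM in WT and at 3.65 to 4.92 CPM in KO. These groups did not overlap, but the difference of -0.58 (95% interval -0.89 to -0.27) missed the threshold at q = 0.0133. It was called in 3 of 7 alternative fits, with q up to 0.0262 in the others. These 3 were DESeq2 (q = 0.00319), only the sham groups in the fit (q = 0.00696) and a replicate block (q = 0.000676). Leaving out a library called it in 2 of 12 fits, with q up to 0.0428 in the others. These left out WT-sham replicate 1 or 3 (the latter -0.64, q = 0.00844). After ORX the 5 KO libraries held 3.82, 4.06, 4.08, 6.53 and 6.85 CPM against 5.35 to 8.11 in WT, a difference of -0.43 with q = 0.104. ORX against sham gave 0.11 in WT (95% interval -0.19 to 0.41) and 0.26 in KO (95% interval -0.07 to 0.59), and KO against WT with empty implants -0.13 (q = 0.776). The interactions were 0.15 with ORX and -0.72 with DHT (q = 0.196).

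*Myog*, the differentiation factor, rose with ORX in both genotypes and fell with DHT in WT. ORX raised it in WT gastrocnemius from 3.32 to 4.70 CPM (median 3.59) to 5.80 to 8.85 CPM (median 6.16), or 1.75-fold (log2 fold change 0.80 ± 0.14 SE, q = 0.000326). In KO it ranged from 3.39 to 5.01 CPM (median 4.09) in sham, and the KO-ORX libraries held 5.68, 5.72, 5.85, 6.76 and 10.5 CPM, a 1.64-fold rise (0.71 ± 0.15 SE, q = 0.0026). All ORX libraries lay above all sham libraries in each genotype. Without KO-ORX replicate 2, at 10.5 CPM, the rise in KO was 0.52 with q = 0.0101, which missed the threshold, as it did with only the KO groups in the fit (q = 0.0124). Genotype made a difference of 0.13 in sham (95% interval -0.17 to 0.44) and of 0.04 after ORX (95% interval -0.26 to 0.35), and the interaction was -0.09.

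In spinalis the 5 WT-empty libraries held 11.9, 13.7, 13.97, 14.5 and 14.9 CPM of *Myog*, and DHT lowered it to 4.44 to 9.68 CPM (median 6.11). The fall was 2.08-fold (log2 fold change -1.06 ± 0.24 SE, q = 0.00255), and every WT-DHT library lay below every WT-empty library. In KO the empty libraries held 7.63, 12.4, 14.7, 16.8 and 17.0 CPM and the DHT libraries 7.31, 8.57, 8.96, 17.2, 17.2 and 18.7 CPM. The KO-DHT libraries thus fell into a lower and an upper set, and DHT against empty in KO was -0.07 (95% interval -0.56 to 0.42). *Myog* was 1.96-fold higher in KO-DHT than in WT-DHT (0.97 ± 0.23 SE, q = 0.00387), although the groups overlapped and the call was kept in 6 of 12 fits that left out a library and lost with only the DHT groups in the fit (q = 0.0106). The interaction of 0.98 (95% interval 0.28 to 1.69) had q = 0.135, so the responses of WT and KO were not shown to differ for *Myog*. With empty implants the genotypes differed by -0.01 (95% interval -0.52 to 0.50).

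*Myf6*, the factor of mature fibres, fell modestly with ORX. In WT it went from 76.8 to 90.4 CPM (median 86.8) to 62.7 to 76.3 CPM (median 68.9), with no overlap, a 1.24-fold fall (log2 fold change -0.31 ± 0.05 SE, q = 0.000193). In KO the sham range was 68.1 to 84.8 CPM (median 76.7), and KO-ORX held 62.8, 65.2, 66.3, 67.9 and 68.4 CPM. The fall of 1.17-fold in KO (-0.22 ± 0.06 SE, q = 0.00955) was called in 2 of 11 fits that left out a library. The fall in KO was not called by limma-voom (q = 0.012), with a replicate block (q = 0.0133) or with only the KO groups in the fit (q = 0.0292). With scaling by library size it was -0.12 with q = 0.248, where the median of all genes moved from 0.01 to 0.12. In spinalis DHT against empty gave 0.21 in WT (95% interval -0.05 to 0.46) and 0.17 in KO (95% interval -0.08 to 0.42), and neither was called. Between genotypes *Myf6* differed by -0.15 in sham (q = 0.0684), -0.06 after ORX, 0.08 with empty implants and 0.05 with DHT. Its interactions were 0.09 with ORX and -0.03 with DHT, and none of these was called.

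*Mef2c*, a MADS-box partner of the myogenic factors, was the 1 member called for a response to DHT that differed between genotypes. The 5 WT-empty spinalis libraries held 560, 599, 604, 612 and 617 CPM, and the WT-DHT libraries lay at 699, with a median of 787, to 898 CPM. DHT raised it 1.33-fold in WT (log2 fold change 0.41 ± 0.07 SE, q = 0.000136), with every WT-DHT library above every WT-empty library. In KO the empty libraries held 519, 586, 599, 633 and 687 CPM and the DHT libraries 553 to 617 CPM (median 597), a difference of -0.03 (95% interval -0.18 to 0.11). The interaction was -0.44 ± 0.10 SE (q = 0.0103) and was called in 22 of 22 fits that left out a library. KO-DHT was 1.35-fold lower than WT-DHT with no overlap (-0.43 ± 0.07 SE, q = 4.77e-05). Endothelial cells also express *Mef2c*, and the summed level of 8 endothelial markers was 221 to 277 CPM in WT-empty and 279 to 336 in WT-DHT, and 235 to 298 in KO-empty and 265 to 349 in KO-DHT. Of these 8 markers 1 was called higher with DHT in WT, and their part in the rise of *Mef2c* was not tested.

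In gastrocnemius *Mef2c* was lower after ORX, with a difference under 0.25 on the log2 scale in each genotype. WT-sham libraries lay at 805 to 896 CPM (median 844) and WT-ORX libraries at 709 to 795 CPM (median 776). They did not overlap, but the difference of -0.15 (95% interval -0.23 to -0.06) had q = 0.0269 by edgeR and q = 0.00587 by DESeq2. In WT, DESeq2 was the 1 of 7 alternative fits that called it, with q up to 0.274 in the others. It was called in 0 of 12 fits that left out a library. KO-sham libraries lay at 842 to 922 CPM (median 872) and KO-ORX libraries at 696, 735, 749, 757 and 810 CPM. The fall in KO was 1.16-fold (-0.22 ± 0.04 SE, q = 0.00183). With scaling by library size it was -0.11 with q = 0.2, and with only KO-sham and KO-ORX in the fit -0.22 with q = 0.0143. The interaction with ORX was -0.07, and the genotypes differed by 0.04 in sham, -0.03 after ORX and 0.02 with empty implants, none of them called.

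*Ncam1* fell with DHT in both genotypes, with the smallest p of the 9 members in each. WT-empty libraries held 6.74, 7.06, 7.73, 8.31 and 8.79 CPM and WT-DHT libraries 3.87 to 4.94 CPM (median 4.28), a 1.79-fold fall (log2 fold change -0.84 ± 0.12 SE, q = 8.49e-06). KO-empty libraries held 7.16, 7.69, 9.61, 9.94 and 11.5 CPM and KO-DHT libraries 3.82 to 5.09 CPM (median 4.26), a 2.10-fold fall (-1.07 ± 0.12 SE, q = 9.41e-07). Neither pair of groups overlapped, and the interaction was -0.23 (95% interval -0.58 to 0.11). Schwann cells also express *Ncam1*, and the summed level of 8 Schwann cell markers was 70.5 to 92.6 CPM in WT-empty and 52.7 to 88.6 in WT-DHT, and 85.1 to 102 in KO-empty and 61.7 to 101 in KO-DHT. Of these 8 markers 1 was called lower with DHT in each genotype and 0 higher, and their part in the fall of *Ncam1* was not tested. The summed smooth muscle and pericyte markers were at 392 to 497 CPM in WT-empty and at 500.2 to 598 in WT-DHT, and at 362 to 465.8 in KO-empty and 473 to 555 in KO-DHT, with no overlap in either genotype. Their part was not tested.

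After ORX, *Ncam1* in WT lay at 4.53 to 7.02 CPM against 4.62 to 6.39 in sham, a difference of 0.01 (95% interval -0.23 to 0.25). In KO it lay at 3.26 to 4.87 CPM in sham, and KO-ORX held 4.58, 5.04, 5.76, 6.19 and 6.36 CPM. That difference of 0.45 (95% interval 0.19 to 0.70) had q = 0.0201 by edgeR, q = 0.00942 by DESeq2, and q = 0.009 without KO-ORX replicate 3. It was called in 2 of 7 alternative fits (q up to 0.0502) and in 1 of 11 that left out a library (q up to 0.064). The interaction of 0.43 (95% interval 0.09 to 0.78) had q = 0.375. Between genotypes *Ncam1* differed by -0.39 in sham (q = 0.0344), 0.05 after ORX, 0.25 with empty implants (q = 0.214) and 0.02 with DHT.

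*Cdh15*, which encodes M-cadherin, was called in 0 of 10 comparisons by edgeR, DESeq2 or limma-voom, and 5 had an unadjusted p under 0.05 by edgeR. Its ranges were 11.3 to 14.7 CPM in WT-sham, 10.7 to 14.4 in WT-ORX, 9.70 to 14.5 in KO-sham and 9.06 to 11.2 in KO-ORX. In spinalis they were 16.9 to 22.6 CPM in WT-empty, 16.2 to 21.3 in WT-DHT, 18.2 to 23.4 in KO-empty and 12.6 to 19.0 in KO-DHT. Its difference for DHT in KO was -0.36 (95% interval -0.57 to -0.14, q = 0.0275). Between genotypes in sham it was -0.29 (q = 0.0693), and -0.39 with q = 0.00814 without KO-sham replicate 1, at 14.5 CPM. The other genotype differences were -0.27 after ORX, 0.13 with empty implants and -0.21 with DHT, and ORX gave -0.12 in WT and -0.10 in KO. Its interactions were 0.02 with ORX and -0.34 with DHT. A fall of more than 0.57 with DHT in KO, or of more than 0.23 in WT, lay outside the 95% intervals.

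Other genes of these pathways were taken from lists of related genes. Of 30 satellite cell niche and quiescence genes, 6 of 30 tested were called with DHT in WT (3 higher, 3 lower, median 0.01), which is 20% against 11.3% of all genes, and 2 in KO (6.67% against 4.62%). *Hes1*, a Notch target, rose with DHT by 0.85 in WT (q = 7.85e-06) and by 0.51 in KO (q = 0.00605), and *Megf10*, a membrane protein of satellite cells, fell by 0.96 in KO. When 1 library was left out, *Hes1* was called in 11 of 11 fits in WT and in 5 of 11 in KO, and *Megf10* in 6 of 11 in KO. Without the 5 libraries with high *Lars2* both *Hes1* calls remained, and *Megf10* was at -0.80 with q = 0.039, leaving 1 call in KO. Between genotypes under DHT 4 of 30 were called (3 higher, 1 lower), or 13.3% against 11.6% of all genes, among them *Fgfr1* (0.54, q = 6.8e-06) and *Fgfr4* (0.83, q = 0.00261), receptors of fibroblast growth factors, and *Itgb1* (-0.30, q = 0.00109), an integrin subunit of the niche. The fourth was *Calcr*, the calcitonin receptor of quiescent satellite cells (1.04, q = 0.00544), named after its values were seen, and it was 1.16 with q = 0.0205 without the libraries with high *Lars2*. In gastrocnemius 2 of 29 were called after ORX in WT (*Itgb1* at -0.22 and *Lama2* at -0.28), 2 in KO (*Notch2* and *Notch3*, both at 0.46, called in 7 and 4 of 11 fits that left out a library). Both counts are 6.9% of the list, against 5.45% and 5.57% of all genes, near the background. Between genotypes edgeR called 0 of 29 in sham and after ORX, against 5.3% and 3.8% of all genes, with 5 and 6 at an unadjusted p under 0.05.

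Of 36 partners and repressors of MEF2 and the myogenic factors, 34 were tested in gastrocnemius and 32 in spinalis. With DHT in WT 6 of 32 were called (5 higher, 1 lower, median 0.11), or 18.8% against 11.3% of all genes, with *Tead4*, a factor bound to muscle promoters, higher by 2.02 (q = 4.7e-09) and *Bhlhe41*, a helix-loop-helix repressor, higher by 1.54 (q = 4.27e-06). In KO 0 of 32 were called by edgeR with DHT, against 4.62% of all genes, and 11 had an unadjusted p under 0.05. The interaction with DHT was called for 2 of 32, or 6.25% against 3.24% of all genes. These were *Tead4* (-1.73, q = 8.8e-05) and *Bhlhe41* (-1.04, q = 0.0379), the latter in 10 of 22 fits that left out a library. Without the libraries with high *Lars2*, *Bhlhe41* was at -0.86 with q = 0.0944, leaving 1 of 32, against 2.09% of all genes. *Tead4* fell with ORX in WT (-1.06, q = 2.97e-06). Between genotypes 7 of 34 were called in sham (1 higher, 6 lower), 4 of 34 after ORX (all lower), 2 of 32 with empty implants (both lower) and 7 of 32 with DHT (1 higher, 6 lower). These counts are 20.6%, 11.8%, 6.25% and 21.9% of the list, against 5.3%, 3.8%, 4.25% and 11.6% of all genes. *Smarcd3*, the BAF60C subunit that assists MyoD on chromatin, was lower in KO in each of these 4 comparisons, by 0.44, 0.56, 0.48 and 0.68 on the log2 scale, with the third called in 7 of 10 fits that left out a library. The other gene called with empty implants, *Srf* (-0.49), was called in 5 of 10 such fits. Without the libraries with high *Lars2*, *Srf* was not called there (q = 0.012), and the count was 3 of 32, against 2.96% of all genes.

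Among 19 fusion and developmental fibre genes, the cardiac actin gene *Actc1* was called with both treatments. It rose by 2.55 after ORX in WT (q = 4.32e-10) and by 1.34 in KO (q = 4.25e-05), and it fell by 2.91 with DHT in WT (q = 7.32e-09), with an interaction with DHT of 2.41 (q = 0.000145). Counts in this list were 2 of 15 after ORX in each genotype, 6 of 16 with DHT in WT (median 0.13) and 3 of 16 with DHT in KO (median -0.07). The shares were 13.3% after ORX in each genotype, 37.5% with DHT in WT and 18.8% with DHT in KO, against 5.45%, 5.57%, 11.3% and 4.62% of all genes in the 4 comparisons. After ORX the other gene called was *Bin1* (-0.24 in WT, -0.26 in KO). It was called in 7 of 12 fits that left out a library in WT and in 8 of 11 in KO. Without the libraries with high *Lars2* the count was 4 of 16 with DHT in WT, against 8.73% of all genes, and 1 of 16 with DHT in KO, against 2.72%. Among 16 activity and denervation responsive genes, *Musk*, the receptor kinase of the neuromuscular junction, fell by 1.09 after ORX in WT and by 0.63 in KO, and rose by 2.04 with DHT in WT and by 1.07 in KO. Called in this list were 4 of 15 after ORX in WT, 3 of 15 in KO, and 4 of 15 with DHT in each genotype. Their shares of 26.7% after ORX in WT and 20% in KO stand against 5.45% and 5.57% of all genes, and the 26.7% with DHT against 11.3% in WT and 4.62% in KO. Without the libraries with high *Lars2* the count with DHT in WT was 2 of 15, against 8.73% of all genes. The 3 genes called after ORX in KO (*Musk*, *Dach2* and *Chrnb1*) were each called in 5 of 11 fits that left out a library. *Musk* was lower in KO than in WT in all 4 comparisons of genotype, by 1.33 in sham, 0.87 after ORX, 0.72 with empty implants and 1.69 with DHT. *Sln*, which encodes the calcium pump regulator sarcolipin, was higher in KO by 2.01 in sham (q = 1.95e-06), 2.69 after ORX (q = 3.25e-08) and 1.98 with DHT (q = 0.000482). With empty implants its difference was 1.42 and was not called (q = 0.0227). *Chrnb1*, a subunit of the acetylcholine receptor, was higher in KO in all 4, by 0.34, 0.35, 0.63 and 1.04, with the first called in 5 of 12 and the second in 3 of 11 fits that left out a library.

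The list of TCEAL and BEX genes, the family of *Tceal7*, had 10 of its 14 genes tested in each muscle. Among the 10 were *Tcea1*, *Tcea2* and *Tcea3*, which encode TFIIS elongation factors and are not TCEAL or BEX genes. *Tceal5* was higher in KO in sham (0.91, q = 4.53e-06), after ORX (0.82, q = 3.46e-05) and with empty implants (1.34, q = 0.000769). With DHT its difference was 0.53 and was not called (q = 0.0968). Its levels were 5.55 to 7.93 CPM in WT-sham and 9.34 to 14.4 in KO-sham. The count for the list between genotypes was 1 of 10 in sham, 2 of 10 after ORX (the other was *Tcea3*, at -0.25) and 1 of 10 with empty implants, against 5.3%, 3.8% and 4.25% of all genes. With DHT edgeR called 0 of 10, against 11.6% of all genes, and 5 had an unadjusted p under 0.05. Of 17 proliferation genes, edgeR called 0 of 14 after ORX in either genotype, against 5.45% of all genes in WT and 5.57% in KO, with 5 at an unadjusted p under 0.05 in each, and 2 of 16 with DHT in KO (12.5% against 4.62% of all genes, median -0.48). In WT edgeR called 0 of 16 with DHT, against 11.3% of all genes, and 5 had an unadjusted p under 0.05. Between genotypes 2 of 16 were called with empty implants (1 higher and 1 lower in KO, 12.5% against 4.25% of all genes), where the median was 0.76 and 10 had an unadjusted p under 0.05, and 1 of 16 with DHT (6.25% against 11.6% of all genes). With empty implants the lower gene, *Cdkn1b* (-0.25), was called in 2 of 10 fits that left out a library. Without the libraries with high *Lars2* it was not called (q = 0.0144), leaving 1 of 16 against 2.96% of all genes. The 2 called with DHT in KO were *Mki67*, a marker of cycling cells, and *Cdkn1a*, a cell cycle inhibitor, both lower and each called in 4 of 11 fits that left out a library and not called without the libraries with high *Lars2* (q = 0.0261 and 0.034). *Cdkn1a* differed by -1.51 (q = 0.00572). *Cdkn1c*, a cell cycle inhibitor, was higher in KO after ORX (0.52, q = 0.000399), with empty implants (0.98, q = 0.000323) and with DHT (0.97, q = 2.79e-05). The difference of *Mki67* was -2.51 (q = 0.00521) and moved most without 1 KO-empty library at 39.7 CPM, against a group median of 4.93, to -1.72 with q = 0.0363. That library also enters the comparison of genotypes with empty implants, where its part in the median of 0.76 was not tested.

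The genes with the profile most like that of each member were found by the mean of the Pearson r of log2 CPM over 23 gastrocnemius and 22 spinalis libraries, among 13370 genes with a median of at least 1 CPM in both muscles. The libraries of a muscle share genotype and treatment, so these values describe the groups as much as the libraries. *Tceal7* had the profile most closely matched of the 9 members, with *Acot9*, a mitochondrial acyl-CoA thioesterase (r = 0.924 and 0.943), and *AW551984* (r = 0.949 and 0.873). For *Myog* the nearest were *Mybph*, which encodes myosin binding protein H (0.790 and 0.767), and *Gm6665* (0.770 and 0.751). For *Mef2c* they were *Map3k7*, the TAK1 kinase (0.794 and 0.863), and *Htatsf1* (0.692 and 0.944). For the other 6 members the mean of both values lay at 0.726 to 0.784.

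**Figure D3:**
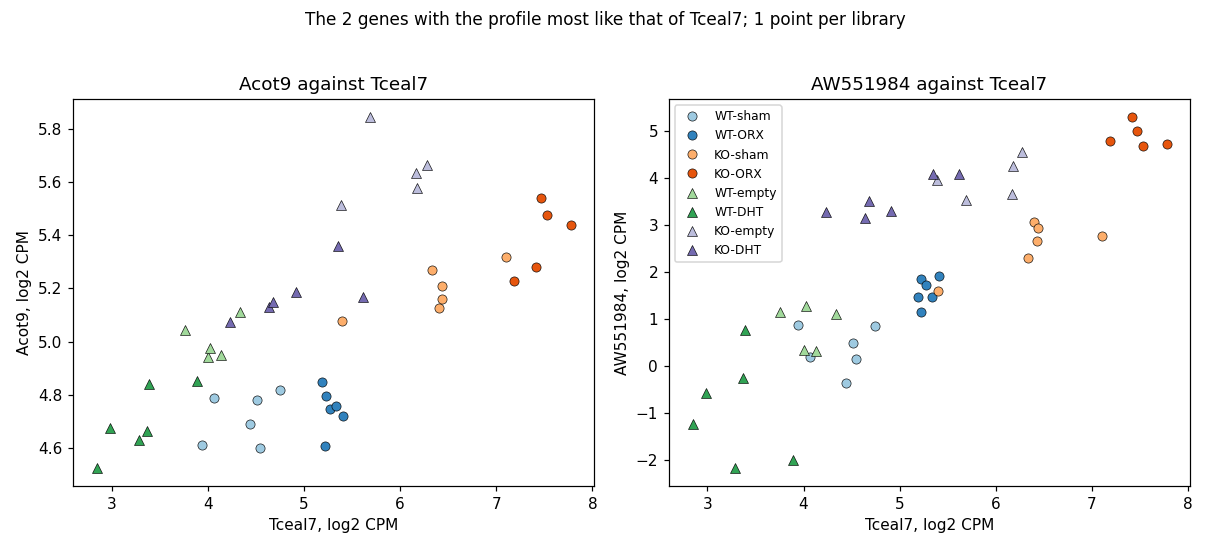
Log2 CPM of *Acot9* (left) and *AW551984* (right) against log2 CPM of *Tceal7*; each point is 1 library, circles are gastrocnemius and triangles spinalis, coloured by group. Each KO group lies to the right of the WT group under the same treatment, and r over the 23 gastrocnemius libraries is 0.924 for *Acot9* and 0.949 for *AW551984*.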

How the data were processed

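The deposited values are counts of reads per gene, whole numbers with no normalization, in 1 table per muscle. The authors prepared stranded total RNA libraries (Illumina TruSeq Stranded Total RNA GOLD) from frozen muscle, and their processing notes name STAR 2.7.1b, SAMtools 1.9, Picard 2.20.2, featureCounts, Subread 2.0.0 and build GRCm39. The annotation release and strand setting are not given in the sources used here. Columns were assigned to groups by their names; spinalis columns carry a mouse number that the labels do not, so they are replicates with no sample label. Gene symbols, exon lengths and overlaps came from GENCODE M21 on GRCm38, with no gene coordinates taken from it.

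A gene was kept if 2 or more libraries reached 0.5 CPM, which left 17514 and 16987 genes. Counts were scaled by TMM and fitted per muscle with 1 mean per group in edgeR 4.0.16 (R 4.3.3), with the quasi-likelihood F-test and Benjamini-Hochberg adjustment over all genes of the table; intervals are 95%. Alternatives were DESeq2 1.42.0, limma-voom (limma 3.58.1), library size scaling, at least 10 counts in every library, thinning to the smallest library, fits of the compared groups alone, a replicate block, another threshold, each library left out, and, added after the data were seen, leaving out 5 spinalis libraries with *Lars2* above 5000 CPM (members and list genes) and leaving out each library for the list genes. On simulated counts the fit recovered 194 of 200 genes changed 2-fold for ORX in WT with 2 false calls, 177 of 200 for the interaction with ORX with 10, 180 of 200 for DHT in WT with 0, and 159 of 200 for the interaction with DHT with 5. The changed genes lay above a minimum mean count, and the spread followed the trend over all genes. Smaller changes and outlying libraries were not simulated. No pair of libraries of the same group agreed within sampling noise (chi-square per gene of 9.13 or more).

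The rule for named genes took all 9 members in every comparison, up to 3 called genes of the smallest p per list and comparison, and the 2 most alike genes per member; the text gives values for some of the list genes and alike genes so chosen. The members and lists were chosen with earlier results of these data known.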

Additional observations from a re-analysis of the deposited data

Results flagged for a closer look

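The CPM of 1 library lay far from the others of its group in 3 cases, among 72 groups of values examined, where chance gives about 1 in 20. *Myod1* in 1 KO-DHT library was 10.91 CPM, with the nearest at 7.237 and the lowest at 5.6. *Myog* in KO-ORX replicate 2 was 10.53 CPM, with the nearest at 6.756 and the lowest at 5.676. *Cdh15* in KO-sham replicate 1 was 14.52 CPM, with the nearest at 11.13 and the lowest at 9.702. For *Mef2c* the response to DHT differed between WT and KO by -0.4442 on the log2 scale, by the interaction term of edgeR (q = 0.0103).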

How the results depend on the processing

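The count of members called was within 1.5 times its main value except as follows. With only the compared groups in the fit it was 1 for DHT in KO, 5 for DHT in WT and 1 for ORX in KO. Over all genes 498, 1690 and 484 were called in the same fits, against 784, 1914 and 975 in the main fit. At a threshold of 0.05 (0.01 for interactions) the count of members was 6 for DHT in WT, where 3078 of 16987 genes were called. It was 4 for KO against WT in sham, where 1838 of 17514 genes were called. For the interaction with DHT it was 0, as *Mef2c* was lost, with 273 of 16987 genes called. With library size scaling the count of members was 1 for KO against WT in sham, with 722 genes called over the whole table against 928 in the main fit. Leaving out 1 library gave counts of 1 to 2 for KO against WT in sham and 2 to 4 for ORX in KO. Over all genes these fits called 690 to 954 in sham and 589 to 1116 for ORX in KO. All changes of sign concerned differences that were not called, and their cause was not tested, nor that of the changed counts. After thinning values turned sign to -0.01433 for *Cdh15* (the interaction with ORX), 0.01365 for *Myog* (the interaction with ORX). With library size scaling values turned sign to 0.01054 for *Cdh15* (ORX in KO), 0.01345 for *Mef2c* (KO against WT after ORX), 0.01537 for *Myf6* (the interaction with DHT), 0.02863 for *Myog* (KO against WT with empty implants), 0.01003 for *Pax7* (the interaction with ORX). With limma-voom values turned sign to -0.01436 for *Myog* (KO against WT after ORX). Without the 5 libraries with high *Lars2* values turned sign to -0.0316 for *Ncam1* (KO against WT with DHT), -0.01786 for *Pax7* (DHT in KO). When each library was left out in turn, the following differences spanned 0. DHT in WT gave -0.06089 to 0.04347 for *Cdh15*. The interaction with ORX gave -0.01702 to 0.12 for *Cdh15*, -0.28 to 0.01093 for *Myog*, -0.22 to 0.06012 for *Pax7*. DHT in KO gave -0.08391 to 0.01054 for *Mef2c*, -0.11 to 0.06476 for *Myf5*, -0.24 to 0.10 for *Myod1*, -0.22 to 0.03947 for *Myog*, -0.05473 to 0.14 for *Pax7*. KO against WT with empty implants gave -0.02954 to 0.06601 for *Mef2c*, -0.10 to 0.14 for *Myog*. The interaction with DHT gave -0.14 to 0.04817 for *Myf6*. KO against WT after ORX gave -0.15 to 0.14 for *Myog*, -0.002381 to 0.13 for *Ncam1*. KO against WT with DHT gave -0.0344 to 0.05856 for *Ncam1*. ORX in WT gave -0.07622 to 0.06812 for *Ncam1*. The 7 called differences of *Tceal7* were called in every fit that left out a library. The share of all calls that were higher moved with library size scaling from 37.5% to 54.4% for ORX in WT, 35.7% to 78.6% for ORX in KO, 28.2% to 46.9% for KO against WT after ORX, 58.8% to 43.6% for DHT in WT, 41.3% to 52.9% for KO against WT with empty implants, 44.1% to 65.3% for KO against WT with DHT, 75% to 100% for the interaction with ORX and 41.5% to 55.1% for the interaction with DHT. The ORX groups share replicate numbers. The 33 same-numbered pairs correlated at -0.15 to 0.188 (median 0.00697, 6 over 0.1), and the 165 other pairs had a median of -0.00881. Of 23 libraries 7 matched their own number best. These values do not settle whether the numbers pair the samples, and the main fit did not use them. With a replicate block the counts were 3 for ORX in WT, 3 for ORX in KO, 3 for KO against WT in sham, 1 for KO against WT after ORX and 0 for the interaction. Over all genes 934, 914, 921, 627 and 5 were called with this block. *Myod1* was then called between genotypes in sham (-0.57, q = 0.000676), and *Myf6* was not called with ORX in KO (-0.23, q = 0.0133). Spinalis columns carry no replicate number. Depth limits *Pax7*, at 34 to 156 counts per library.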
